A study of Homo sapiens with 24 samples.

Results

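Metallothioneins are small cysteine-rich proteins that bind zinc, copper and cadmium, buffer free zinc and take up oxidants. Their genes lie in 1 cluster on human chromosome 16 and are switched on by MTF1, a transcription factor that senses zinc and binds short metal response elements in their promoters, and also by glucocorticoids and oxidative stress. In colorectal and other cancers some MT1 genes are known to be silenced together with CpG methylation of their promoters.

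The 8 genes described are MT2A, MT1E, MT1X, MT1F, MT1A, MT1G, MT1M and MT1H, taken by symbol from the 58735 genes of the count tables. They were chosen by a measured value, the lower MT1E level after UHRF1 depletion, that is in UHRF1-AID day 4 against WT day 4 libraries. The values of all 8 genes in that comparison are therefore a description here, with no test, and no p is given for MT1E in any other comparison that uses those libraries.

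RNA was sequenced from HCT116, a human colorectal carcinoma line, in 8 groups of 3 libraries (24 in all). The groups were 4 lines, WT, the single-degron lines DNMT1-AID and UHRF1-AID, and the double-degron line UHRF1-AID/DNMT1-AID, each before auxin (day 0) and after 4 days in 500 µM auxin and 2 µg/mL doxycycline (day 4). All 4 lines, WT included, carry OsTIR1 under a doxycycline-inducible promoter, and doxycycline with the OsTIR1 inhibitor auxinole preceded auxin. In the AID lines an auxin-inducible degron was knocked into the endogenous gene, with mClover at the C-terminus of UHRF1 and with mRuby2 at the N-terminus of DNMT1, so that auxin removes the protein. UHRF1 brings the maintenance DNA methyltransferase DNMT1 to newly replicated DNA, and the study asked what the loss of each, or of both, does to cancer cells. The 3 libraries of a group are biological replicates by the study's methods, with the AID lines prepared from different clones, although the labels do not tell which clone a library is.

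Each library held 15824804 to 25073821 counts on genes. Epithelial markers were present in every library (EPCAM 333 to 597 CPM, KRT8 1610 to 3190 CPM), and of the 8 markers of leukocytes, fibroblasts and endothelium 7 reached at most 1.48 CPM, with COL1A1 at 1.29 to 19.8 CPM. CPM are normalised counts relative to library size, after TMM scaling over the 24 libraries. UHRF1 mRNA ranged from 17.7 to 194 CPM and DNMT1 mRNA from 9.49 to 192 CPM, but a degron acts on the protein, so these levels do not check the depletion. The file headers name 2 alignment folders, 1 with all day 0 and the UHRF1-AID day 4 libraries and 1 with the other 9 day 4 libraries, so UHRF1-AID day 4 against WT day 4, and day 4 against day 0 in the other 3 lines, cross them. The libraries of the first folder held 0% ERCC spike-in counts and those of the second 0.891% to 1.65%. Scaling by ERCC was therefore limited to comparisons within the second folder. For each library the deviation of every gene from its mean log2 CPM over the 24 libraries was correlated with its exon length. This correlation varied by library (Spearman's rho from -0.176 to 0.244), with -0.176 to -0.146 in UHRF1-AID/DNMT1-AID day 4 and -0.125 to -0.0477 in DNMT1-AID day 4. Its sign is thus relative to the other libraries.

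The promoters are shown because metal response elements lie in promoters of this family, and because UHRF1 and DNMT1 act on CpG sites. Methylation of these promoters and binding of MTF1 to them were not examined here. RefSeq (GRCh38.p14) gave 250 bases before the start for 3 of the 8 genes. Capitals mark matches, on either strand, to TGCACNC or TGCGCNC, 2 forms of the metal response element core that do not overlap each other in these promoters. MT2A is the most abundant member in these cells, at chr16:56608334-56608583, plus strand. MT1H, at chr16:56669564-56669813, plus strand, had no count. MT1X, at chr16:56682220-56682469, plus strand, was expressed weakly. No promoter is shown for MT1A, MT1E, MT1F, MT1G and MT1M. The RefSeq starts of MT2A and MT1X lie inside the gene spans of the count tables.
MT2A: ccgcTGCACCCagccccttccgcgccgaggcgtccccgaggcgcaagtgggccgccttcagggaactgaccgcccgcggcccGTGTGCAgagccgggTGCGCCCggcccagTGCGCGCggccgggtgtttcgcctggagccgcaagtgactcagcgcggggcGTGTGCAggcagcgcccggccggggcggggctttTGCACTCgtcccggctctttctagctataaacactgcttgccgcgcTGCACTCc
MT1H: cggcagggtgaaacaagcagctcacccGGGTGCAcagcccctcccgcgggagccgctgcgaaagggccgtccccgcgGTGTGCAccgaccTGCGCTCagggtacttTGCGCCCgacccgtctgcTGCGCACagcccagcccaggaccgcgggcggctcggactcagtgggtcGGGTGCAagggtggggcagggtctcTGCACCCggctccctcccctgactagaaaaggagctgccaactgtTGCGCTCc
MT1X: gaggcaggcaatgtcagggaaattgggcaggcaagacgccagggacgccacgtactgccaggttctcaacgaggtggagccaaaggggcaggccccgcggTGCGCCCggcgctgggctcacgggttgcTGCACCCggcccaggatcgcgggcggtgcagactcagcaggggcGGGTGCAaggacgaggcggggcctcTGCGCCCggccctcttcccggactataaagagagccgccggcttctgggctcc

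The MT2A promoter held 7 such matches and 32 CpG dinucleotides, the MT1H promoter 8 matches and 22 CpG, and the MT1X promoter 4 matches and 22 CpG. Among 35116 promoters of the same length 24.8% held at least 1 match, 0.37% at least 4, 0.0313% at least 7 and 0.0171% at least 8. The median promoter had 11 CpG, 28.0% had at least 22 and 9.5% at least 32. MT1H and MT2A are thus both dense in these letters, although MT1H was not detected and MT2A had the highest level.

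All 8 genes lie within the 16 metallothionein genes and pseudogenes of the cluster, which spans 56565049 to 56684196 on chromosome 16 (hg38, as the count tables give it). In order along the plus strand they are MT2A (ENSG00000125148, 56608199 to 56609497), MT1E (ENSG00000169715, 56625475 to 56627112), MT1M (ENSG00000205364, 56632233 to 56633986), MT1A (ENSG00000205362, 56638666 to 56640087), MT1F (ENSG00000198417, 56657694 to 56660698), MT1H (ENSG00000205358, 56669814 to 56671129) and MT1X (ENSG00000187193, 56682424 to 56684196). MT1G (ENSG00000125144, 56666731 to 56668065) is the only one on the minus strand.

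The copies are alike, so part of their reads can be ambiguous. Of all 50-base stretches of exon, 14.4% in MT1G, 10.6% in MT1H, 9.2% in MT1M, 6.9% in MT1E and 3.2% in MT2A also occur in another metallothionein gene, against 1.3% in MT1X, 0.1% in MT1F and none in MT1A. No stretch of 100 bases within an exon was shared by any of them. All these stretches lie within single exons, and stretches that cross a splice junction were not compared. Of the MT1X exon bases 18.1% are also annotated to a second gene, ENSG00000259827, which was listed at 0 in every library. How the counting treated reads that map to several places or overlap several genes is not given in the sources used here, so the low counts of MT1G, MT1H and MT1M, and the level of MT1X, are uncertain.

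The 8 genes fell into 3 tiers. MT2A and MT1E were strongly expressed in every library, MT1X and MT1F were weak but present in all 24, and MT1A, MT1G, MT1M and MT1H had 0 counts in all 12 day 0 libraries and in WT day 4. Per kilobase of exon, WT day 0 cells had 507 ± 62.4 CPM of MT2A, 289 ± 35.9 CPM of MT1E, 6.53 ± 0.638 CPM of MT1X and 4.52 ± 0.317 CPM of MT1F (SD, n = 3). Only these 4 genes passed the filter on low counts in the comparisons below, so 4 of the 8 members were tested.

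MT2A, the main ubiquitous metallothionein, had its highest group means in WT cells, at both days. Its 3 libraries held 621, 752 and 604 CPM in WT day 0, 702, 437 and 633 CPM in UHRF1-AID day 0, 372, 615 and 399 CPM in DNMT1-AID day 0, and 471, 357 and 349 CPM in UHRF1-AID/DNMT1-AID day 0. At day 4 they held 637, 618 and 696 CPM in WT, 339, 219 and 285 CPM in UHRF1-AID, 445, 447 and 406 CPM in DNMT1-AID and 218, 234 and 201 CPM in UHRF1-AID/DNMT1-AID cells. The 2 day 4 groups with a degron on UHRF1 were the lowest of the 8: their libraries, at 201 to 339 CPM, lay below all 18 others, which began at 349 CPM, but their own ranges overlapped. Within the other 6 groups each overlapped the next in order.

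MT1E, a metal-inducible MT1 isoform, had 262, 317 and 334 CPM in WT day 0, 255, 212 and 267 CPM in UHRF1-AID day 0, 224, 346 and 207 CPM in DNMT1-AID day 0, and 234, 206 and 224 CPM in UHRF1-AID/DNMT1-AID day 0. At day 4 it had 377, 322 and 321 CPM in WT, 133, 140 and 132 CPM in UHRF1-AID, 252, 284 and 254 CPM in DNMT1-AID, and 141, 171 and 145 CPM in UHRF1-AID/DNMT1-AID cells. Again the 6 day 4 libraries with a degron on UHRF1 lay below the other 18, and here the UHRF1-AID day 4 libraries (up to 140 CPM) ended just below the UHRF1-AID/DNMT1-AID day 4 libraries (from 141 CPM). The remaining 6 groups overlapped from each one to the next.

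MT1X and MT1F, a pair of weakly expressed MT1 isoforms, followed a different order. MT1X was highest in WT day 4 (13.4, 16.3 and 14.8 CPM) and lowest in UHRF1-AID day 4 (6.78, 4.47 and 6.33 CPM), and the 7 groups from WT day 0 at 11.6 CPM down to UHRF1-AID day 4 at 5.86 CPM each overlapped the next. MT1F was also highest in WT day 4 (13.4, 14.9 and 15.2 CPM), with the other 7 groups between 6.65 and 10.3 CPM and each overlapping the next. For both genes WT day 4 was the group that stood clear of its neighbour.

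In the comparison that led to the choice, UHRF1-AID day 4 against WT day 4, all 4 expressed members were lower. On the log2 scale MT1E was at -1.30 (SE 0.11), MT2A at -1.17 (0.16), MT1X at -1.30 (0.21) and MT1F at -0.87 (0.17). Of 13958 genes tested by edgeR's quasi-likelihood test in that comparison, 6.57% were lower at a Benjamini-Hochberg adjusted p under 0.05. The 2 groups come from different alignment folders, and genes with under 1000 bases of exon had a median log2 difference of -0.24 there, against 0.03 for all genes. With an offset for transcript length MT2A was at -0.99 and MT1E at -1.09.

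UHRF1-AID/DNMT1-AID day 4 against DNMT1-AID day 4 asks what UHRF1 loss adds to DNMT1 loss, uses none of the libraries that chose MT1E and lies within 1 alignment folder. It also sets 2 lines against each other, so a difference present before auxin is included. The changes from day 0 to day 4 differed between these lines by -0.75 for MT2A and -0.56 for MT1E. Neither difference passed the test (edgeR adjusted p = 0.104 and 0.17). MT2A fell to 217.5 ± 16.7 CPM from 432 ± 23.3 CPM (SD, n = 3), a log2 change of -0.997 (SE 0.09, edgeR adjusted p = 3.76e-07) or 2.00-fold lower. MT1E fell to 152 ± 16.2 CPM from 263 ± 17.7 CPM, a log2 change of -0.80 (SE 0.09, edgeR adjusted p = 9.22e-06) or 1.74-fold lower. For both genes all 3 libraries of 1 group lay below all 3 of the other, where 18.3% of genes were lower without overlap. MT1F, at -0.20 (95% interval -0.545 to 0.137, edgeR adjusted p = 0.447), and MT1X, at -0.17 (-0.478 to 0.134, edgeR adjusted p = 0.476), did not pass the test, and their intervals exclude a change as large as that of MT2A.

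So 2 of the 4 members tested fell and none rose in that comparison, where 9.79% of 14246 genes fell. The study's methods also ask for an absolute log2 change over 1, and with that minimum neither counted, MT2A lying at the limit, where 6.84% of genes passed both. With the same minimum 1 of the 3 members tested (MT2A) counted in UHRF1-AID/DNMT1-AID against WT day 4, where 11.7% of genes did, 1 of 3 (MT2A) in UHRF1-AID day 4 against day 0 (21.9% of genes) and 0 in UHRF1-AID/DNMT1-AID day 4 against day 0 (26.6% of genes). The fall of MT2A and MT1E kept an adjusted p under 0.05 whichever of the 6 libraries was omitted (MT2A -1.06 to -0.94, MT1E -0.89 to -0.72). Short transcripts moved the other way there, with 98 of 618 genes under 1000 exon bases higher and 12 lower, and with a length offset MT2A was at -1.11 and MT1E at -0.92. Fewer cells of a kind and less RNA per cell cannot be told apart in such bulk samples.

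**Figure D1:**
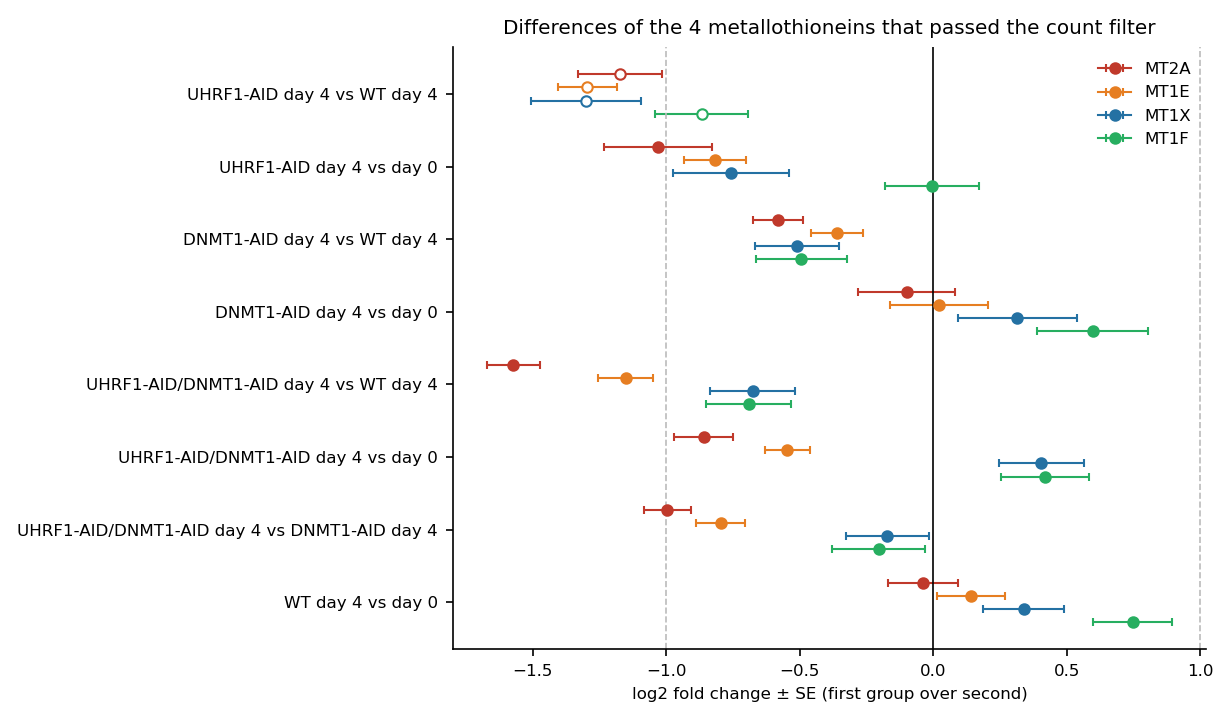
Log2 fold changes (horizontal axis, points, with SE as bars) of MT2A, MT1E, MT1X and MT1F in 8 comparisons listed on the vertical axis. Hollow points mark the comparison that chose MT1E, which has no test, and dashed lines mark a doubling or halving. MT2A and MT1E are at -0.997 and -0.80 in UHRF1-AID/DNMT1-AID against DNMT1-AID day 4, with MT1X and MT1F near 0.

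Before auxin 2 members were already lower in the double-degron line. In UHRF1-AID/DNMT1-AID against WT at day 0, MT2A was at -0.75 on the log2 scale (SE 0.16, edgeR adjusted p = 0.0425) and MT1X at -0.74 (SE 0.16, edgeR adjusted p = 0.0449), whereas MT1E (-0.46, edgeR adjusted p = 0.0612) and MT1F (-0.36, edgeR adjusted p = 0.279) did not pass. These were 2 of 4 members, where 2.1% of 14023 genes were lower. Both passes depended on which libraries were used: of the 6 fits without 1 library, MT2A passed only without UHRF1-AID/DNMT1-AID day 0 replicate 1 (edgeR adjusted p = 0.0449, otherwise up to 0.201) and MT1X only without WT day 0 replicate 3 (0.00431, otherwise up to 0.198). DESeq2 gave adjusted p-values of 0.00057 for MT2A, 0.00671 for MT1X and 0.0159 for MT1E. With the replicate number as a block the edgeR adjusted p was 0.0552 for MT2A and 0.0865 for MT1X.

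UHRF1-AID and DNMT1-AID cells at day 0 gave no member past the test against WT. The 4 members ranged from -0.30 to -0.08 in UHRF1-AID and from -0.55 to -0.27 in DNMT1-AID cells (edgeR adjusted p of 0.942 or more and of 0.801). Of all genes tested, 0% and 0.00723% were lower there, so those comparisons called hardly any gene. At an unadjusted p under 0.05 stood MT1E in UHRF1-AID (0.0458) and MT2A in DNMT1-AID cells (0.0337), and DESeq2 called none of the members either.

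Each line was therefore also set against its own day 0. In UHRF1-AID/DNMT1-AID cells MT2A fell by 0.86 from 392.35 ± 68.4 to 217.5 ± 16.7 CPM (SE 0.11, edgeR adjusted p = 1.30e-05) and MT1E by 0.55 from 221 ± 14.2 to 152 ± 16.2 CPM (SE 0.08, edgeR adjusted p = 1.45e-05), both also without any 1 of the 6 libraries. MT1F rose by 0.42 (edgeR adjusted p = 0.032) and MT1X by 0.40 (0.0324 after the same adjustment). Thus 2 members fell and 2 rose, where 32.5% of 14698 genes fell and 35.2% rose. The 2 rises did not pass without either of UHRF1-AID/DNMT1-AID day 0 replicates 2 and 3 (edgeR adjusted p of 0.0683 and 0.129 for MT1F, 0.0887 and 0.119 for MT1X), without day 4 replicate 2 (0.0603 and 0.053), and, in turn, without day 4 replicate 3 for MT1F (0.126) and replicate 1 for MT1X (0.167). Nor did they pass by DESeq2 (adjusted p = 0.0834 and 0.0856), with a length offset (edgeR adjusted p = 0.116 and 0.138) or with no filter on low counts (0.0684 and 0.0749).

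In UHRF1-AID cells, where both days come from 1 alignment folder, MT2A fell by 1.03 (SE 0.20, edgeR adjusted p = 0.00267) and MT1X by 0.76 (SE 0.22, edgeR adjusted p = 0.0162). MT1E was at -0.82 (SE 0.12), given without a test, and MT1F at -0.0035 (SE 0.18, edgeR adjusted p = 0.988). So 2 of the 3 members tested fell, where 22.9% of 14391 genes did. MT1X did not pass without UHRF1-AID day 0 replicate 1 (edgeR adjusted p = 0.0635) or replicate 3 (0.0535). The UHRF1-AID day 4 libraries are those of the choice, so these falls are not independent of it.

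DNMT1-AID and WT cells did not show a fall of MT2A or MT1E over the 4 days. In DNMT1-AID cells MT2A was at -0.10 (95% interval -0.455 to 0.255, edgeR adjusted p = 0.688) and MT1E at 0.02 (-0.339 to 0.38, edgeR adjusted p = 0.939), while MT1F rose by 0.60 (SE 0.21, edgeR adjusted p = 0.0409) and MT1X was at 0.32 (edgeR adjusted p = 0.286). That is 1 of 4 members higher where 19.5% of 13850 genes were, and MT1F did not pass without DNMT1-AID day 0 replicate 1 (edgeR adjusted p = 0.0998) or 2 (0.0551), or day 4 replicate 1 (0.163) or 2 (0.116), or with no filter on low counts (0.0501). In WT cells MT1F rose by 0.75 (SE 0.15, edgeR adjusted p = 0.00528), also in all 6 fits without 1 library, while MT2A was at -0.04 (-0.297 to 0.219, edgeR adjusted p = 0.836), MT1E at 0.14 and MT1X at 0.34 (edgeR adjusted p = 0.112). That is 1 of the 3 members tested, where 17.7% of 13601 genes were. The WT day 4 libraries are those of the choice, so the WT values are not independent of it.

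Differences between these day effects were tested directly. The day effect on MT2A was lower by 0.87 in UHRF1-AID/DNMT1-AID than in WT cells (SE 0.18, edgeR adjusted p = 0.00568), where 9.12% of 15016 genes were lower. MT1E was lower by 0.74 in the same contrast, with no test, and the WT day 4 libraries of both values are those of the choice. Against DNMT1-AID cells the day effect was lower by 0.75 for MT2A (SE 0.24, edgeR adjusted p = 0.104) and by 0.56 for MT1E (SE 0.22, edgeR adjusted p = 0.17), neither past the test, where 0.957% of 15149 genes were lower. In that contrast DNMT1-AID day 0 replicate 2, which had the highest MT2A and MT1E of its group, decided whether they passed, and without it the differences were -1.02 (edgeR adjusted p = 0.00932) and -0.83 (edgeR adjusted p = 0.015). For MT2A the adjusted p was also 0.0415 by DESeq2 and 7.3e-05 by edgeR with no filter on low counts, which for MT1E gave 0.00655. Between DNMT1-AID and WT cells the estimated difference of day effects was under 0.15 in size for each of the 4 members. None of the 3 other than MT1E passed (edgeR adjusted p from 0.801 to 0.985), where 0.0139% of genes were lower. The SE of the 4 differences, 0.23 to 0.26, were larger than the estimates, so larger differences in either direction are not excluded.

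The WT day 4 libraries also served as the control of DNMT1-AID and UHRF1-AID/DNMT1-AID day 4. Against them MT2A fell by 0.58 in DNMT1-AID cells (SE 0.09, edgeR adjusted p = 0.00129) and by 1.57 in UHRF1-AID/DNMT1-AID cells (SE 0.10, edgeR adjusted p = 9.85e-11). MT1E was at -0.36 and -1.15, with no test. MT1X was at -0.51 (edgeR adjusted p = 0.0617) and fell by 0.68 (0.00208), and MT1F was at -0.49 (edgeR adjusted p = 0.0928) and fell by 0.69 (0.0017), the first value of each pair being for DNMT1-AID cells. So 1 of the 3 members tested fell in DNMT1-AID cells, where 2.93% of 13582 genes did, and all 3 fell in UHRF1-AID/DNMT1-AID cells, where 17.8% of 14219 did. The WT day 4 libraries are those of the choice, and MT2A and MT1X varied with MT1E (Pearson's r of 0.885 and 0.725), so these falls are not independent of it. With all 24 libraries in 1 fit the MT2A change in DNMT1-AID cells had an edgeR adjusted p of 0.0607.

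A few reads of copies that were silent in WT cells were found at day 4 in the AID lines. MT1A, the classical MT1 isoform, had 3, 8 and 6 reads in UHRF1-AID day 4, 0, 0 and 5 in DNMT1-AID day 4, and 17, 7 and 15 in UHRF1-AID/DNMT1-AID day 4, with 0 in the 15 libraries of the other groups. MT1G, a member known to be silenced with promoter methylation in several carcinomas, had 0, 5 and 7 reads, then 2, 1 and 0, and then 7, 12 and 12 in the same 3 groups, again with 0 elsewhere. These are levels of at most 1.07 CPM for MT1A and 0.775 CPM for MT1G.

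MT1M had 4, 1 and 2 reads in UHRF1-AID/DNMT1-AID day 4 and 1 read in a single UHRF1-AID day 4 library, and MT1H had 0 in all 24 libraries, which allows up to 3 counts in each (0.119 to 0.198 CPM). In UHRF1-AID/DNMT1-AID day 4 every library thus had reads of MT1A, MT1G and MT1M, and no other group did. These 4 genes were below the filter on low counts. Relative to that floor of 3 counts per library, UHRF1-AID/DNMT1-AID day 4 was at least 6.31-fold higher than its own day 0 for MT1A and at least 5.05-fold higher for MT1G.

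Against DNMT1-AID day 4, UHRF1-AID/DNMT1-AID day 4 had 39 against 5 MT1A reads, a depth-corrected ratio of 7.89 (95% exact interval 3.11 to 25.7), and 31 against 3 MT1G reads, a ratio of 10.5 (3.26 to 53.5). The intervals cover counting error only. No test is given, since both genes lay below the filter on low counts. Without that filter they enter a fit mainly through the group where they are high. The MT1A ranges, 0 to 5 and 7 to 17 reads, did not overlap, nor did the MT1G ranges, 0 to 2 and 7 to 12. Among genes that passed the filter, a set without MT1A and MT1G, 18.8% were higher without overlap. No such share was counted for genes below the filter.

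**Figure D2:**
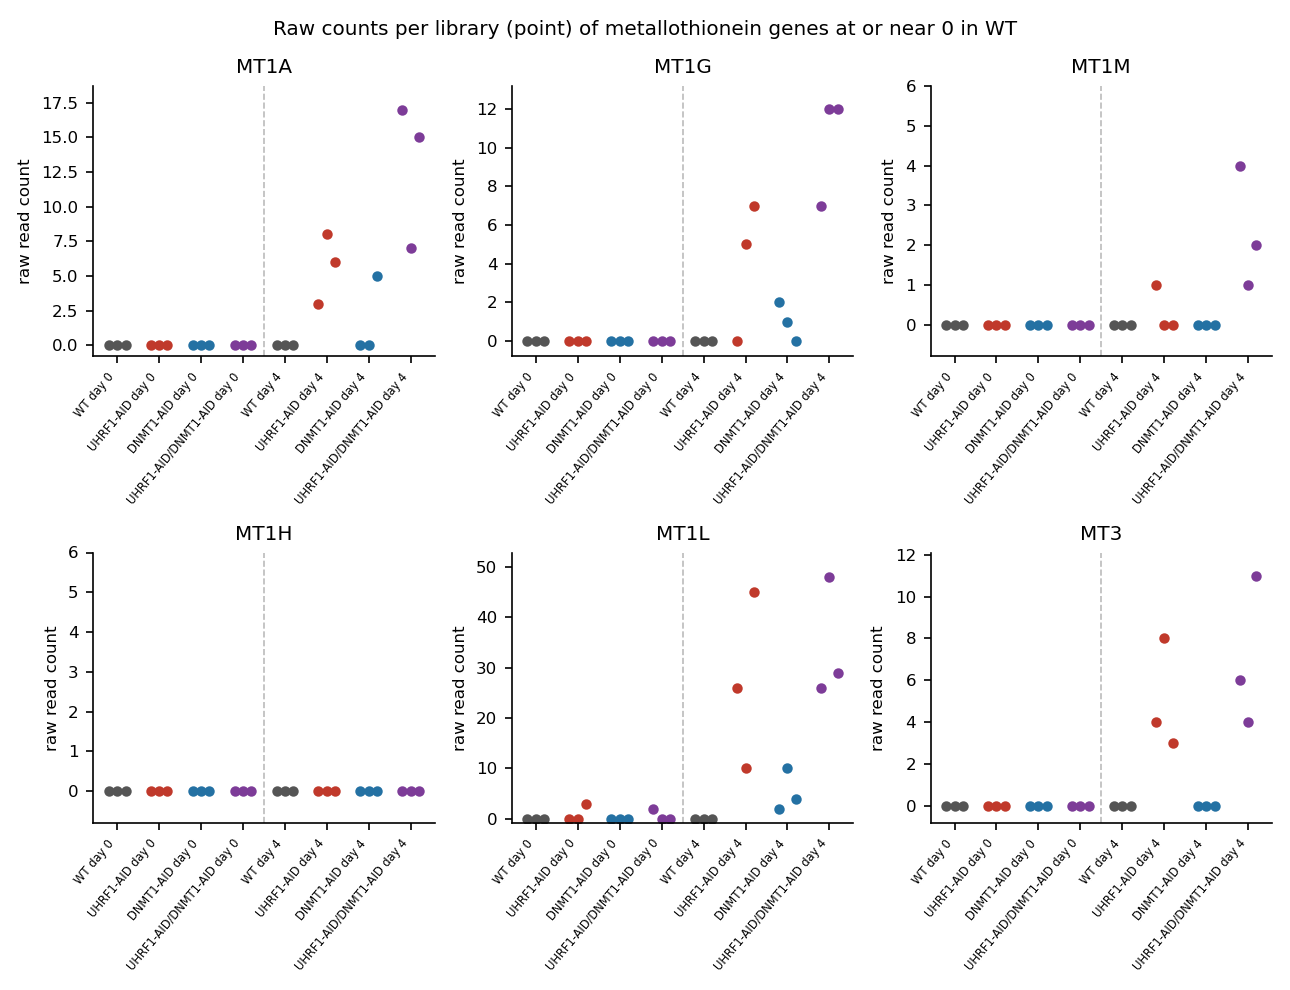
Raw read counts (vertical axes) of the 4 members near 0, MT1A, MT1G, MT1M and MT1H, and of the related genes MT1L and MT3 in the 24 libraries, by line and day. Each point is 1 library. MT1A and MT1G have reads only at day 4 in the AID lines, with the most in UHRF1-AID/DNMT1-AID cells (7 to 17 and 7 to 12), MT1L has up to 3 reads at day 0, and MT1H stays at 0.

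MT1L and MT3, 2 further copies, also had most of their reads at day 4 in the lines with a degron on UHRF1. Of the 13 further metallothionein genes and pseudogenes, MT1L, MT1DP and MT3 reached 10 reads in a library, and 2 of the 13 had no read. MT1L, an MT1 pseudogene between MT2A and MT1E, had 26, 48 and 29 reads in UHRF1-AID/DNMT1-AID day 4, 2, 10 and 4 in DNMT1-AID day 4 and 26, 10 and 45 in UHRF1-AID day 4, with 0 in all 6 WT libraries. UHRF1-AID/DNMT1-AID against DNMT1-AID day 4 gave a ratio of 6.52 by counts (95% exact interval 3.83 to 11.8) and a log2 difference of 2.68 (SE 0.51). These are given with no test, since MT1L passed the filter on low counts through the group where it is high. MT3, the brain-enriched metallothionein, had 4, 8 and 3 reads in UHRF1-AID day 4 and 6, 4 and 11 in UHRF1-AID/DNMT1-AID day 4, and 0 in the other 18 libraries. The transcribed pseudogene MT1DP had its lowest level in UHRF1-AID day 4, at 0.449 ± 0.109 CPM (SD, n = 3), against 0.839 to 1.38 CPM in the other 7 groups, and it did not pass in UHRF1-AID/DNMT1-AID against DNMT1-AID day 4 (-0.18, SE 0.44, edgeR adjusted p = 0.814). No 50-base stretch within a single exon of MT1L or MT3 occurs in an exon of another metallothionein gene.

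Across the 24 libraries MT1E and MT2A varied together (Pearson's r of 0.885 on log2 CPM), as did MT1F and MT1X (0.726) and MT1E and MT1X (0.725), while MT1F and MT2A did so least (0.333). The libraries share lines, days and depth, so these values describe the set. In the plot of both genes the 6 day 4 libraries with a degron on UHRF1 lay apart at the low end. Among 15693 other genes the patterns most like that of MT1E were those of AREG, an epidermal growth factor receptor ligand (0.899), ZDHHC6, a palmitoyltransferase (0.878), ID1, an inhibitor of differentiation (0.876), ACTG1, cytoplasmic actin (0.875), and the non-coding LINC02454 (0.868). For the mean of the 4 expressed members they were ACTG1 (0.878), AREG (0.851), TNFRSF1A, a tumour necrosis factor receptor (0.829), GRB7, an adaptor protein (0.818), and GPAT3, a glycerolipid enzyme (0.814).

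**Figure D3:**
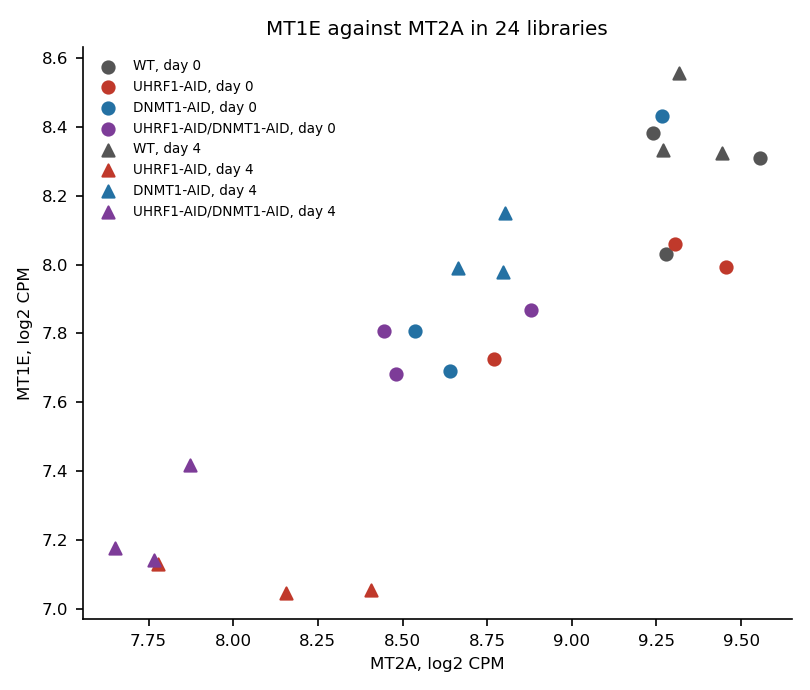
MT1E (vertical axis) against MT2A (horizontal axis), both in log2 CPM, in the 24 libraries. Circles are day 0 and triangles day 4 libraries, with colours for the 4 lines. The 6 UHRF1-AID and UHRF1-AID/DNMT1-AID day 4 libraries lie at the lower left (Pearson's r = 0.885 over all libraries).

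MTF1 mRNA, the zinc-sensing activator of these genes, did not pass in any of the comparisons. It was at 16.7 ± 1.60 CPM in UHRF1-AID/DNMT1-AID day 4 against 19.7 ± 1.35 CPM in DNMT1-AID day 4 (SD, n = 3), a log2 change of -0.24 (SE 0.13, edgeR adjusted p = 0.192). SLC30A1, the zinc exporter that MTF1 also activates, rose over the 4 days in all 4 lines. It rose by 1.19 from day 0 to day 4 in UHRF1-AID/DNMT1-AID cells (SE 0.10, edgeR adjusted p = 5.52e-09), from 20.4, 18.6 and 21.7 to 44.2, 51.3 and 44.0 CPM, and by 0.46 in WT cells (SE 0.12, edgeR adjusted p = 0.0185), and these day effects differed by 0.68 (SE 0.15, edgeR adjusted p = 0.0069). Between UHRF1-AID/DNMT1-AID and DNMT1-AID day 4 it was at 0.23 (SE 0.10, edgeR adjusted p = 0.117).

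Few other genes of zinc and copper handling passed the test in UHRF1-AID/DNMT1-AID against DNMT1-AID day 4. Of 25 zinc transporters with MTF1, 19 were tested, 1 rose (the importer SLC39A13, by 0.29) and 1 fell (the importer SLC39A10, by 0.47), with a median log2 change of -0.03 against -0.01 for all genes. Of 11 copper genes 10 were tested, with a median of 0.26, and 2 rose and none fell. Those 2 were the copper chaperones ATOX1 (0.61, SE 0.10, edgeR adjusted p = 0.000279) and COX17 (0.58, SE 0.10, edgeR adjusted p = 0.000333). In the comparison 10.7% of all genes rose and 9.79% fell.

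Genes of the other known inducers of metallothioneins were counted in the same way, where 9.79% of all genes fell and 10.7% rose, with a median of -0.01. Of 21 NRF2 targets, the oxidative stress genes, 20 were tested, 5 fell and none rose, with a median of -0.14. Those 5, named after their values were seen, were FTH1, the ferritin heavy chain (-0.77), NQO1, a quinone reductase (-0.52), TXNRD1, thioredoxin reductase (-0.56), SLC7A11, the cystine importer (-0.73), and ABCC2, a conjugate exporter (-0.78). FTH1 rose over the 4 days in WT cells, from 924 ± 77.4 to 1521 ± 128 CPM (SD, n = 3, edgeR adjusted p = 0.0036), and in DNMT1-AID cells, from 890 ± 33.4 to 1572 ± 106 CPM (edgeR adjusted p = 0.000437), and was at -0.09 in UHRF1-AID/DNMT1-AID cells (edgeR adjusted p = 0.367). Of 14 heat shock genes 13 were tested, 2 fell and none rose (median -0.02).

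Of 9 glucocorticoid-induced genes 8 were tested, 3 fell and 1 rose, with a median of -0.04, where 9.79% of all genes fell and 10.7% rose. The 1 that rose was SGK1 (0.87, edgeR adjusted p = 0.0023). Those that fell were KLF9 (-0.76), PER1 (-0.88) and ERRFI1. ERRFI1, a feedback inhibitor of the epidermal growth factor receptor, was the single gene of these lists to pass with more than a halving. It had 349, 331 and 314 CPM in UHRF1-AID/DNMT1-AID day 4 and 838, 1648 and 827 CPM in DNMT1-AID day 4, a log2 change of -1.74 (SE 0.33, edgeR adjusted p = 0.0237). The ranges did not overlap, although 1 DNMT1-AID library stood well above the other two.

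The genes around the cluster were counted in the same comparison. Of 38 other genes within 500 kb, 9 were tested in UHRF1-AID/DNMT1-AID against DNMT1-AID day 4, where 9.79% of all genes fell and 10.7% rose. Among them 1 fell (NUDT21, an RNA 3' processing factor, by 0.30, SE 0.08, edgeR adjusted p = 0.018) and none rose, with a median of -0.07. None of the 9 changed by more than a doubling or halving. Within the cluster MT2A and MT1E fell, MT1L, whose start lies between them at 9.3 kb from that of MT2A, was at 2.68 with no test, and MT1F at 49.5 kb and MT1X at 74.2 kb did not pass the test.

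**Figure D4:**
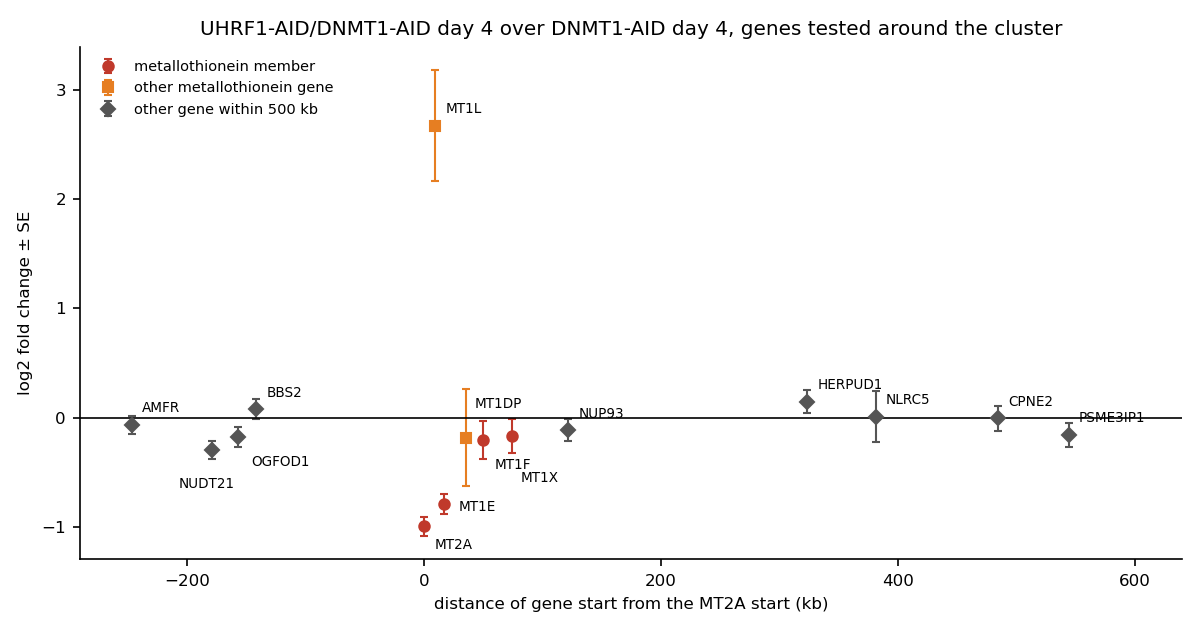
Log2 fold change (vertical axis, with SE as bars) in UHRF1-AID/DNMT1-AID day 4 over DNMT1-AID day 4 of the tested genes in and around the cluster, by distance of each gene's start from that of MT2A in kb (horizontal axis). Circles are members, squares other metallothionein genes and diamonds genes within 500 kb of the cluster. MT2A (-0.997) and MT1E (-0.80) lie below every neighbour, and MT1L (2.68) far above.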

How the data were processed

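RNA was sequenced from 24 HCT116 libraries in 8 groups of 3. The authors selected polyadenylated RNA, mapped read pairs with STAR (genome hg38), summed them over genes in featureCounts and deposited raw counts, 1 table per library. The treatment of strand and of reads that map to several places is not given in the sources used here. The 92 ERCC spike-in features entered neither library sizes nor tests. Depth was 15824804 to 25073821 counts per library, so 3 counts, the limit a count of 0 allows, stand for 0.119 to 0.198 CPM.

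Groups came from the sample labels. Each comparison used the libraries of its own groups in edgeR 4.0.16 (R 4.3.3): filterByExpr, TMM scaling, the robust quasi-likelihood test and Benjamini-Hochberg adjustment over all genes tested. A gene passed at an adjusted p under 0.05 and was called when its absolute log2 change was also over 1, as in the study's methods. Verbs such as rose and fell are used for genes that passed. CPM values use TMM factors over all libraries. Counting intervals are exact 95% intervals and, like the floors, cover counting error only.

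The alternatives were DESeq2 1.42.0, RLE scaling, no filter, a minimum of 10 counts per library, a joint fit of all 24, a length offset, the replicate number as a block, no minimum fold, leaving out each library and, added after seeing the data, ERCC scaling. On simulated counts for UHRF1-AID/DNMT1-AID against DNMT1-AID day 4, 99.5% of 198 changed genes were recovered with 3 of 13961 genes called wrongly, and 95% of 200 with 5 of 14658 for the difference of day effects between these lines. The recovered changes had a median log2 size of 1.99 and 2.07 in turn, larger than any change of the 4 members tested. These rates therefore do not tell how often changes as small as theirs would be found. Between libraries of the same replicate number all 3 correlations of deviations were over 0.1 in day 4 against day 0 of UHRF1-AID (0.179 to 0.344) and UHRF1-AID/DNMT1-AID cells (0.121 to 0.13), and not in the other 9 pairwise comparisons. Single values in those 9 ran from -0.795 to 0.42. The labels name no clone, so whether the numbers pair the libraries is not known. Replicates differed by more than counting noise (chi-square per degree of freedom 3.71 to 64.3).

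The 8 genes and the gene lists were chosen with earlier results of these data known. Named were the 8 genes, their copies with at least 10 counts in a library, MTF1, SLC30A1, per list the 2 called genes of smallest p in each direction, neighbours within 500 kb that were called, and the 5 genes of most similar pattern. Genes named from counts of 5 or fewer, and FTH1, were chosen after their values were seen.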

Additional observations from a re-analysis of the deposited data

Results flagged for a closer look

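The change of MT2A from day 0 to day 4 differed between UHRF1-AID/DNMT1-AID and WT cells, with a difference of log2 changes of -0.87 (SE 0.18; edgeR adjusted p = 0.00568). MT2A went from 392.35 ± 68.4 to 217.5 ± 16.7 CPM in UHRF1-AID/DNMT1-AID cells and from 659 ± 81.1 to 650 ± 40.6 CPM in WT cells (SD, n = 3). All 12 fits that left out 1 library passed, with differences of -0.9972 to -0.72, and with all 24 libraries in 1 fit the edgeR adjusted p was 0.0439. Day 0 and day 4 of both lines lie in different alignment folders. The WT day 4 libraries are also those of the choice, so this difference is not independent of it.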

How the results depend on the processing

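Of 812 recomputed values, 770 kept their direction and stayed called or not called (adjusted p under 0.05 with an absolute log2 change over 1), 29 changed sign, 9 gained a call and 4 lost one. 53 moved across an adjusted p of 0.05, 32 of them on leaving out 1 library. These values and the counts of called genes below cover all 8 genes and so include MT1E, whose values are a description and no test where WT day 4 or UHRF1-AID day 4 libraries enter. Which of the 8 genes were called depended mostly on the minimum fold and the filter, since MT2A lies near a halving and MT1A and MT1G lie below the filter. Against 0 called in UHRF1-AID/DNMT1-AID over DNMT1-AID day 4, 3 were called with no filter on low counts (1439 of 26318 genes). DESeq2 called 2 (1217 of 26317) and a length offset 1 (960 of 14246). ERCC scaling gave 1 (1018 of 14246) and no minimum fold 2 (2919 of 14246). Brackets hold the genes called of all tested, or those passing where no minimum fold was set. Members below the filter entered only with no filter or by DESeq2. They did so mainly through the group where they are high, so their calls are no test. UHRF1-AID/DNMT1-AID over WT day 4 went from 2 (MT2A and MT1E) to 4 under ERCC scaling (2796 of 14219 genes) and no minimum fold (5433 of 14219). The 2 added there were MT1X and MT1F, which were lower. With no filter (2535 of 26020 genes) and by DESeq2 (2090 of 26020) the count was also 4. The 2 added there were members below the filter, which had 0 counts in WT day 4 and were higher. UHRF1-AID day 4 over day 0 went from 1 (MT2A) to 3 with no filter (4139 of 26684 genes) and 2 by DESeq2 (3613 of 26684). The members added there lay below the filter and were higher. With no minimum fold it went to 3 (MT2A, MT1X and MT1E, all lower), where 7114 of 14391 genes passed. UHRF1-AID/DNMT1-AID day 4 over day 0 went from 0 to 3 with no filter (5108 of 27110 genes) and 2 by DESeq2 (4504 of 27108), members below the filter that were higher. A length offset gave 1 (3828 of 14698 genes). No minimum fold gave 4 (9960 of 14698), MT2A and MT1E lower and MT1X and MT1F higher. With no minimum fold the count also went from 0 to 2 (MT2A and MT1E) for DNMT1-AID over WT day 4, to 1 for WT and to 1 for DNMT1-AID day 4 over day 0, to 2 for UHRF1-AID/DNMT1-AID over WT day 0 and to 2 (MT2A and MT1E) for the difference of day effects between UHRF1-AID/DNMT1-AID and WT.

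ERCC scaling moved the median of all genes to -0.16 in UHRF1-AID/DNMT1-AID over DNMT1-AID day 4, to -0.49 in UHRF1-AID/DNMT1-AID and to -0.35 in DNMT1-AID over WT day 4. MT2A was then at -1.15 in the first of these, still below that median. Genes called lower in UHRF1-AID/DNMT1-AID over WT day 4 were 354 of 1663 with TMM and 1804 of 2796 with ERCC scaling.

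Sign changes concerned values near 0. MT1F in UHRF1-AID day 4 over day 0 was 0.0070 with at least 10 counts in every library. The difference of day effects of MT1X between UHRF1-AID/DNMT1-AID and DNMT1-AID was -0.0016 with a length offset, and between DNMT1-AID and WT that of MT1X was 0.0596 and that of MT2A 0.0347 with the same offset. The replicate block gave 0.0107 for that MT1X value. It took the adjusted p above 0.05 for MT2A and MT1X in UHRF1-AID/DNMT1-AID over WT day 0 and for MT1F in DNMT1-AID day 4 over day 0 (edgeR adjusted p = 0.0805). In no comparison were the numbers shown to pair the libraries. In the 2 comparisons with all 3 correlations over 0.1, the block left MT2A at -1.03 and -0.85 and changed no member's call.

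Leaving out 1 library gave 2 to 4 called in UHRF1-AID/DNMT1-AID over WT day 4, 0 to 3 over DNMT1-AID day 4, 0 to 2 over its day 0, 0 to 1 in UHRF1-AID day 4 over day 0 (0 without day 0 replicate 1 or 3 or day 4 replicate 2) and 0 to 1 for the difference of day effects between UHRF1-AID/DNMT1-AID and DNMT1-AID. Signs changed within -0.1028 to 0.0667 for MT2A in WT, -0.104 to 0.0542 for MT1F in UHRF1-AID, -0.1205 to 0.2868 for MT1E and -0.2286 to 0.1633 for MT2A in DNMT1-AID day 4 over day 0, and -0.2934 to 0.0277 for MT2A in UHRF1-AID over WT day 0. For differences of day effects they did so within -0.1411 to 0.2515 for MT1X between UHRF1-AID/DNMT1-AID and DNMT1-AID, -0.0752 to 0.1259 for MT1X between UHRF1-AID/DNMT1-AID and WT, and, between DNMT1-AID and WT, -0.1909 to 0.2007 for MT1X, -0.2508 to 0.1326 for MT1E and -0.2063 to 0.1892 for MT2A. The causes were not tested. MT1A, MT1G, MT1M and MT1H, at 17 or fewer counts in a library, are limited by depth.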
